A study of Mus musculus with 31 samples.

Results

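Chromatin accessibility was examined at 9 cadherin genes, Cdh2, Cdh3, Cdh4, Cdh5, Cdh6, Cdh10, Cdh11, Cdh13 and Cdh15, in parental NIH-3T3 cells. The genes were taken by name from the GENCODE annotation of mm10 and are 9 of 21938 protein-coding genes. A peak was assigned to a gene when its interval lay within 1 kb of any annotated transcription start site (TSS) of that gene, when its summit lay elsewhere in the gene body, or when its summit lay within 100 kb outside the gene. In this way 82 of 63456 peaks were assigned, 2 at a TSS, 33 in gene bodies and 47 outside the genes. No peak was assigned to more than 1 of the 9 genes.

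Cadherins are calcium-dependent adhesion proteins that hold neighbouring cells together by binding cadherins on the opposite cell. In the classical members a cytoplasmic tail binds beta-catenin and p120-catenin, and alpha-catenin links this complex to actin. Cells exchange one cadherin for another as they change identity. The replacement of E-cadherin (Cdh1) by N-cadherin during epithelial to mesenchymal transition is the best known case, and fibroblasts typically carry N-cadherin and cadherin-11. Among the genes examined, Cdh2 (N-cadherin), Cdh3 (P-cadherin), Cdh4 (R-cadherin) and Cdh15 (M-cadherin) encode type I cadherins. Cdh5 (VE-cadherin), Cdh6 (K-cadherin), Cdh10 and Cdh11 (OB-cadherin) encode type II cadherins. Cdh13 (T-cadherin) is held in the membrane by a lipid anchor and has no cytoplasmic tail, so it is not a classical cadherin in the strict sense.

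The data come from 1 ATAC-seq library of the parental NIH-3T3 line, mouse embryonic fibroblasts without a transgene for a transcription factor (TF). In this assay the transposase Tn5 inserts sequencing adapters into open DNA, and fragments pile up where chromatin is accessible. The labels give 50000 cells, 0.5 µM Tn5 and 12 PCR cycles, and list no doxycycline for this line. The other 30 samples of the series, 2 for each of 13 overexpressed TFs and 4 controls that express rtTA3G alone, were not analysed here. Each peak carries a fold enrichment, the fragments at the summit over the number expected locally, each with 1 added, and a −log10 q, which grows as the peak becomes less likely under the peak caller's Poisson model. The number of fragments at each summit was solved from these values. It had a median of 29 over all peaks and of 25 over the 82 peaks, where it ranged from 11 to 160. A single library gives no replicate error, and neither peaks nor genes are replicates, so no test was made and every count describes this library. Intervals given for fragments are exact 95% Poisson intervals and cover counting error only. All 12 fibroblast markers examined, among them Col1a1, Fn1, Vim, Pdgfra and Thy1, had a peak at a TSS, against 53.7% of all protein-coding genes. The weakest were those of Thy1 (fold 3.41, 12 fragments) and Prrx1 (fold 3.65, 22 fragments). This and the other gene lists were chosen with earlier results of these data known, so their shares are descriptions only.

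The following windows, which reach 50 bp to either side of a peak summit, are shown for the highest body peaks of Cdh3, Cdh5, Cdh10 and Cdh13, for the Cdh5 peak at a TSS, and for further sites of Cdh13 and Cdh4 picked because they hold the letters counted further on. No window of Cdh2 is shown. They were read from the GRCm38 (mm10) sequence on the plus strand, 5′ to 3′, and none overlaps an untranslated region. Capitals mark TGANTCA, the sequence bound by AP-1 TFs, or part of the core bound by the insulator protein CTCF, taken as CC, 3 bases of any kind, AG, 2 bases of any kind and GGC. Both were searched on either strand, and the window of the highest Cdh13 peak holds neither. The window of the Cdh3 intron 2 peak lies at chr8:106530017-106530117, those of Cdh5 at chr8:104121967-104122067 in intron 2 and chr8:104110922-104111022 at a TSS. That of Cdh10 lies at chr15:18821477-18821577 in intron 1, those of Cdh13 at chr8:118394172-118394272, chr8:118286704-118286804 and chr8:118384455-118384555 in intron 1, and that of Cdh4 at chr2:179875398-179875498 in intron 8.
Cdh3, intron 2: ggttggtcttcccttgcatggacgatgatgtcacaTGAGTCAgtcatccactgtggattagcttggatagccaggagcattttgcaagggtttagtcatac
Cdh5, intron 2: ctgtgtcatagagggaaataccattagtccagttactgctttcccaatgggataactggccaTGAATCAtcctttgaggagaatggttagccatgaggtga
Cdh5, TSS: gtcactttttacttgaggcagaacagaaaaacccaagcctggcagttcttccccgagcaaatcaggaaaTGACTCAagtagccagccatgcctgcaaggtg
Cdh10, intron 1: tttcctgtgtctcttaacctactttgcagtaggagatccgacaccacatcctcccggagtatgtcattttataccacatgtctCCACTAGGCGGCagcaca
Cdh13, intron 1, highest peak: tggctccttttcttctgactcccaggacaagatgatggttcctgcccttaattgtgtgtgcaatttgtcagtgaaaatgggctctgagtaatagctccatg
Cdh13, intron 1, near the TSS: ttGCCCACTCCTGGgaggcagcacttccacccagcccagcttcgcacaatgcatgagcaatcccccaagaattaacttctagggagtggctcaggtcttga
Cdh13, intron 1, farther in: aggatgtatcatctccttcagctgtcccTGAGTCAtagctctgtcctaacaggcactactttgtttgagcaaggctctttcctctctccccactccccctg
Cdh4, intron 8: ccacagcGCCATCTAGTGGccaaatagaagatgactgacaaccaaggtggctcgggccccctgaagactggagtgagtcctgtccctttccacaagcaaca

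Few of the cadherin promoters had a called peak. Only Cdh2 and Cdh5, 2 of the 9 genes, had a peak within 1 kb of a TSS, whereas 53.7% of all protein-coding genes had one. With transcripts tagged basic in GENCODE only, 1 of the 9 genes had one, Cdh2, against 51.5% of all protein-coding genes, since the Cdh5 peak lies at the start of a transcript without that tag and the main Cdh5 promoter had none. The peak nearest to a TSS without being counted there was that of Cdh10, at 1085 bp. Gene body peaks were found in 7 of the 9 genes, against 33.9% of all protein-coding genes. Longer genes have more room for such peaks, and the 9 genes are long, with a median of 153.5 kb against 17.4 kb over all protein-coding genes. Outside the gene but within 100 kb, 8 of the 9 genes had a peak, against 87.1% of all genes, with a median of 5 such peaks against 8. The genes without a peak at a TSS or in the body were Cdh11 and Cdh15.

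**Figure D1:**
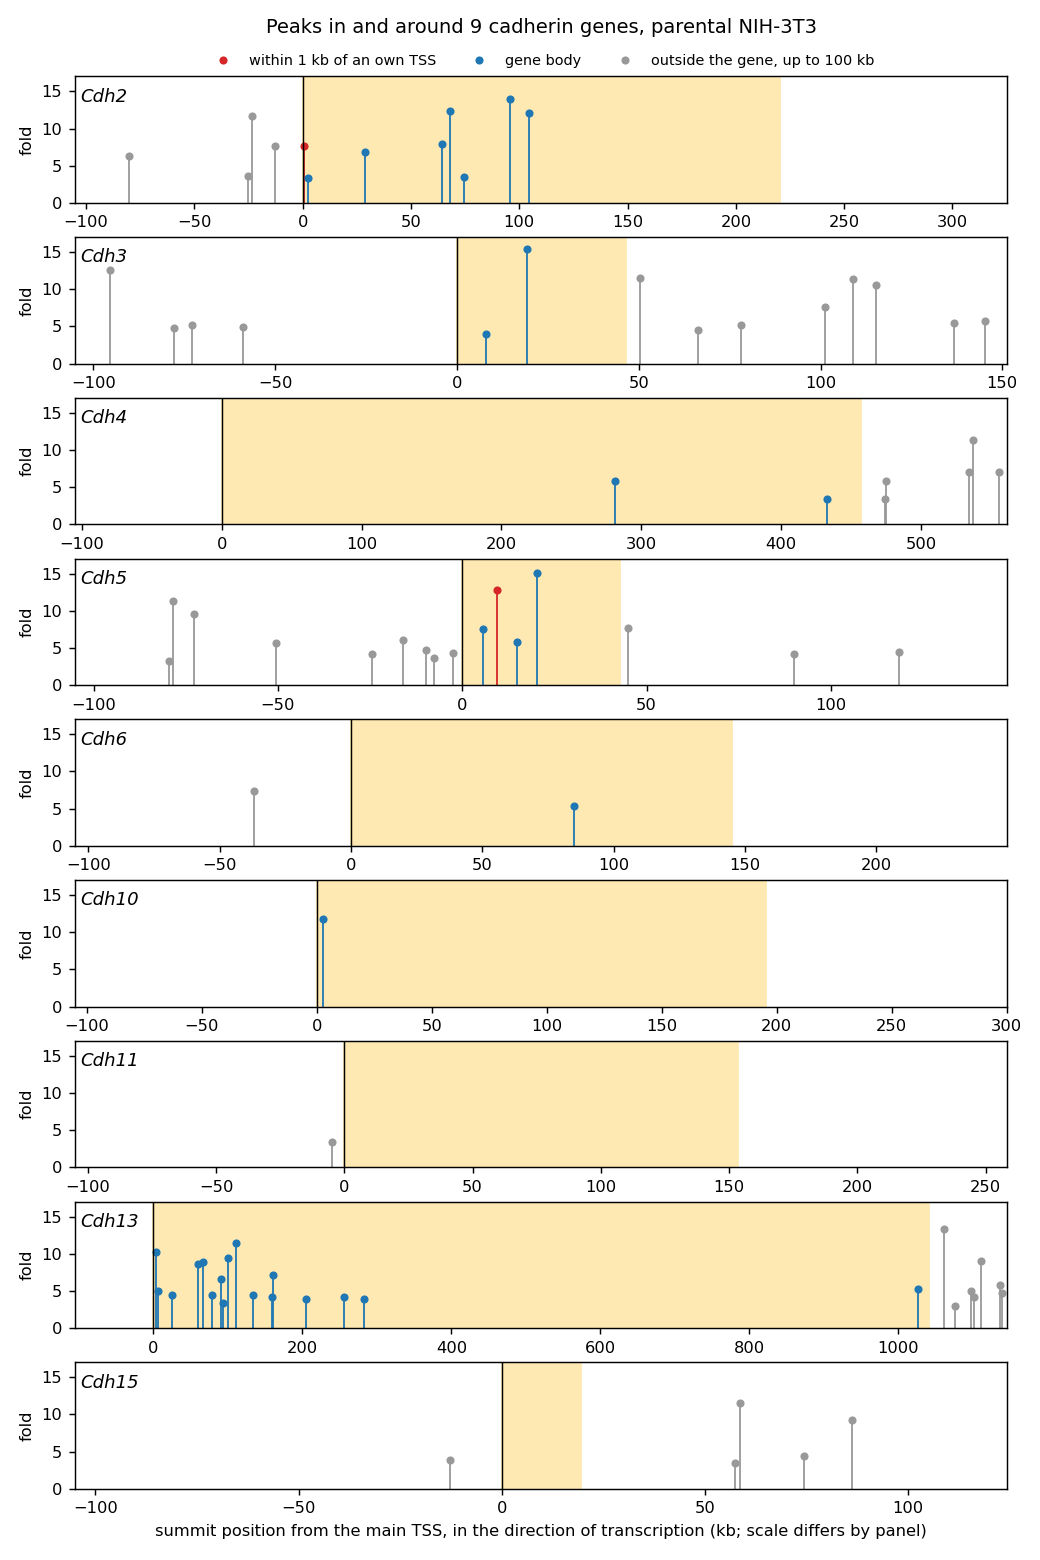
Position of each peak (x axis, kb from the main TSS in the direction of transcription) and its fold enrichment (y axis) for the 9 genes in parental NIH-3T3 cells, with the gene body shaded and the scale differing by panel. Peaks of Cdh2 and Cdh13 gather in the 5′ part of the gene, Cdh5 has 4 peaks inside a gene of 42.9 kb, and the bodies of Cdh11 and Cdh15 hold 0.

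Cdh2 was the only one of the 9 genes with a peak over its main TSS. N-cadherin is the cadherin that mesenchymal cells and neurons are best known for. The gene (ENSMUSG00000024304.14) spans chr18:16588877-16809246 on the minus strand. The TSS peak, at chr18:16807718-16809801, was 2084 bp wide and reached a fold of 7.62, with a −log10 q of 32.6. Its summit lay under 61 fragments (46.7 to 78.4) against 7.14 expected, 772 bp into the gene. In height this peak was close to the typical promoter, since the median over all TSS peaks was a fold enrichment of 8.03, but it was wider than their median of 629 bp.

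Inside the Cdh2 gene the sites highest in fold enrichment were not at the promoter but in intron 2. The highest of the 7 body peaks, at chr18:16713149-16714216 and 95.6 kb from the main TSS, had a fold enrichment of 13.9 and 80 fragments (63.4 to 99.6). The next, 68.2 kb from the TSS, reached 12.3 with 75 fragments, and the one at 104.4 kb reached 12.0 with 48 fragments. All 3 exceeded the TSS peak in fold enrichment, although the intervals of their fragments overlapped that of the TSS peak. Fewer fragments were expected at them, 4.82, 5.18 and 3.07 in the same order, against 7.14 at the TSS peak. The peak at 104.4 kb had fewer fragments than the TSS peak, 48 against 61. The other body peaks had folds of 3.35 to 7.97, and the interval of the lowest began 1134 bp from the nearest annotated start, its summit being 2295 bp from the main TSS. From the peak at 104.4 kb to beyond the 3′ end, 231 kb held no peak, and these covered 52.5% of the gene. All 4 peaks outside the gene were upstream, the highest with a fold enrichment of 11.7 at 23.4 kb from the TSS.

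Cdh3 and Cdh5 held the highest peaks of all 9 genes, in each case in intron 2. P-cadherin, the product of Cdh3, is known from basal epithelial layers and placenta. Its gene (ENSMUSG00000061048.8, chr8:106510891-106557297, plus strand) had no peak within 7962 bp of its only annotated TSS. Yet 19.2 kb into the gene, at chr8:106529871-106530265, a peak reached a fold of 15.4 (−log10 q of 68.5). The summit lay under 81 fragments (64.3 to 100.7) against 4.34 expected, and 97.1% of all peaks had a lower fold enrichment. The only other body peak, 8.01 kb from the TSS and also in intron 2, had a fold of 3.94 and 14 fragments. The gene therefore had no called peak at its promoter but 1 strong intronic site, whose window is printed above and holds TGAGTCA.

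The surroundings of Cdh3 held 12 peaks, 8 of them downstream. Of these, 5 lay in the body of the neighbouring Cdh1, which encodes E-cadherin, with folds of 7.63, 11.3, 10.6, 5.52 and 5.78. Cdh1 itself had no peak within 1 kb of a TSS, like Cdh3. The highest peaks near Cdh3 were at the TSS of Zfp90 (fold 12.6, 95.4 kb upstream) and 4.07 kb beyond the 3′ end of Cdh3 (fold 11.5).

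Cdh5 had the most body peaks per 100 kb of the 9 genes. It encodes VE-cadherin, the adhesion molecule by which endothelial cells are usually recognised. The gene (ENSMUSG00000031871.9) spans chr8:104101625-104144511 on the plus strand. Its main TSS, which is overlapped by the antisense noncoding gene Gm29682, had no peak within 1 kb, and the nearest peak was 2394 bp away with a fold of 4.36. The peak counted at a TSS, at chr8:104110603-104111350, covers the start of that shorter transcript and lies 9.35 kb into the gene in intron 1 of the main transcript. It had a fold of 12.8, a −log10 q of 84.2 and 114 fragments (94.0 to 137). Whether this peak marks a promoter or another kind of site in the intron cannot be told apart in this list.

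A higher peak followed in intron 2 of Cdh5, 20.4 kb from the main TSS at chr8:104121467-104122231, with a fold of 15.01, a −log10 q of 102 and 127 fragments (106 to 151). The window of the peak at a TSS holds TGACTCA. That of the intron 2 peak holds TGAATCA, which differs from the AP-1 sequence in its middle base. Of the remaining body peaks, that in intron 1 reached a fold of 7.53 and lay 1196 bp from a TSS of Gm29682. The one in intron 2 had a fold of 5.79. Outside the gene 9 peaks lay upstream and 3 downstream, and the highest was 78.4 kb upstream with a fold of 11.3, a −log10 q of 107 and 160 fragments. Another at 72.9 kb upstream reached 9.56. A weaker peak of fold 4.51 lay at a TSS of the gene Gm45887, 75.5 kb beyond the 3′ end. Of the 8 endothelial markers 3 had a promoter peak (Pecam1, Tek and Vwf, folds of 8.40, 3.58 and 6.33), against 53.7% of all protein-coding genes. Kdr, Tie1, Emcn, Esam and Sox17 had none.

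The long gene of R-cadherin, which is known from brain, kidney and muscle, held few peaks. Cdh4 (ENSMUSG00000000305.12, chr2:179442431-179899373, plus strand) had 2 body peaks in 456.9 kb. The first, 281 kb from the main TSS in intron 2, had a fold of 5.80 and 23 fragments, and the second, in intron 8 at 433 kb, a fold of 3.41 and 15 fragments. Both were below the median fold of 6.04 over all peaks. A stretch of 994 kb without any peak reached from upstream of the gene to the first of them and took in 61.5% of the gene. All 5 peaks outside Cdh4 lay downstream. The highest had a fold of 11.3 and 111 fragments at 80.7 kb beyond the 3′ end, the next a fold of 7.06, and that at the TSS of Taf4 a fold of 7.04.

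Cdh15 encodes M-cadherin, which is known from skeletal muscle and its satellite cells. The gene (ENSMUSG00000031962.6, chr8:122847966-122867397, plus strand) is the shortest of the 9, with 19.4 kb, and held no peak. Among the genes of 0.5 to 2 times its length, 68.8% also had no body peak. The nearest peak was 12698 bp upstream of the TSS, with a fold of 3.94. Higher folds of 11.5, 9.19 and 4.46 were found only inside Ankrd11, 39.3 to 66.7 kb beyond the 3′ end. Cdh15 also lies within the annotated span of another gene model, Gm20388. Of the 7 skeletal muscle markers 1 had a promoter peak, Des (fold 5.00), against 53.7% of all protein-coding genes. Myod1, Myf5 and Myog had none.

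Of the type II genes, Cdh6, Cdh10 and Cdh11 had the fewest peaks. Cadherin-6 is known from kidney and neural crest. Its gene (ENSMUSG00000039385.5, chr15:13028701-13173675, minus strand) had 1 body peak, in intron 2 at 84.9 kb from the TSS, with a fold of 5.34 and 20 fragments (12.2 to 30.9). The only other peak within 100 kb lay 36.7 kb upstream and reached a fold of 7.35 with 27 fragments (17.8 to 39.3). These intervals of fragments overlap, and the order of both peaks was not tested.

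Cadherin-10 is best known from the brain. Cdh10 (ENSMUSG00000022321.15, chr15:18818947-19014236, plus strand) had a single peak within the gene and its 100-kb surroundings, but a strong one. At chr15:18821414-18821641, in intron 1, it had a fold of 11.8, a −log10 q of 34.1 and 44 fragments (32.0 to 59.1) against 2.81 expected, the background level of the library. The interval began 1085 bp from the nearest annotated start and 2467 bp from the main TSS. On either side of it 757 kb and 1048 kb were free of peaks. The window printed above holds CCACTAGGCGGC.

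Cadherin-11 is known as the cadherin of osteoblasts and loose mesenchyme. Cdh11 (ENSMUSG00000031673.6, chr8:102632095-102785642, minus strand) nevertheless had no peak in its 153.5 kb and none at its TSS. The whole gene lay inside a stretch of 1552 kb without a peak. Only 111 of 62151 autosomal stretches between peaks were at least as long, and these took up 10.7% of the autosomal bases. The stretch ended 4642 bp upstream of the TSS, at a peak on chr8:102790284-102790539 with a fold of 3.41, a −log10 q of 2.95 and 12 fragments (6.20 to 20.96) against 2.81 expected. That was a weak site, since 9.49% of all peaks had a lower fold enrichment. Unplaced reads in repeats can hide peaks, and 36.2% of the stretch was soft-masked as repeated sequence, against 33.5% of the autosomes, with 0% unknown bases. The part of repeats in the lack of peaks was not tested. Among genes of 0.5 to 2 times the length of Cdh11, 19.3% had no body peak.

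T-cadherin, known from blood vessels, heart and adipose tissue, where it binds adiponectin, had the most body peaks. Cdh13 (ENSMUSG00000031841.19) spans 1041 kb at chr8:118283733-119324921 on the plus strand. It held 17 body peaks but none within 2394 bp of a TSS. Of the 17, 14 lay in intron 1, 2 in intron 2 and 1 in intron 11. A peak-free stretch of 744 kb, or 71.4% of the gene, separated the 16 peaks in the 5′ part, all within 282 kb of the main TSS, from the last at 1027 kb. The highest had a fold of 11.4 and 59 fragments (44.9 to 76.1) at 110 kb. The peak nearest to the TSS, 3.02 kb inside intron 1, had a fold of 10.2 and 73 fragments (57.2 to 91.8). Another at 100.8 kb reached 9.45 with 35 fragments. Folds of the remaining body peaks were 3.39 to 8.93. The 7 peaks outside the gene were all downstream and included the TSSs of Hsbp1 (fold 13.3) and Mlycd (fold 9.08).

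Since longer genes offer more room for peaks, body peaks were also counted per 100 kb and compared with protein-coding genes of 0.5 to 2 times the length. Cdh5 had 6.995 peaks per 100 kb against a median of 1.36 over 6778 genes, of which 89.8% were lower, but this rests on 3 peaks. Cdh3 had 4.31 against 1.53, with 79.4% of genes lower, but this rests on 2 peaks. At a q of 1e-05 or below, or a fold of at least 5, Cdh3 kept 1 of them, or 2.15 per 100 kb, with 62.9% and 72.0% of genes lower, and lay within the quartiles. Cdh2, at 3.18 against 1.90, and Cdh13, at 1.63 against 0.549, were above the median but within the quartiles of their length class. Cdh4 (0.438 against 1.44), Cdh6 (0.690 against 2.03), Cdh10 (0.512 against 1.97) and Cdh11 (0 against 2.096) were below the median. With all peaks, Cdh6, Cdh10 and Cdh11 were also below the lower quartile, Cdh6 narrowly (0.690 against 0.712). At a q of 1e-05 or below this held for Cdh11 but not for Cdh6 (quartile 0) or Cdh10 (0.512 against 0.501). Cdh4 then fell below its quartile (0.219 against 0.299). At a fold of at least 5 the quartiles of Cdh6, Cdh10 and Cdh11 fall to 0. Cdh15, at 0, equalled the median of its class. A fold of at least 5 left Cdh4 at 0.219 and Cdh13 at 0.864. The 9 genes lay on both sides of genes of their length, 4 above, 4 below and 1 at the median, and each kept its side of the median at q of 0.01 or 1e-05 and at a fold of at least 5.

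**Figure D2:**
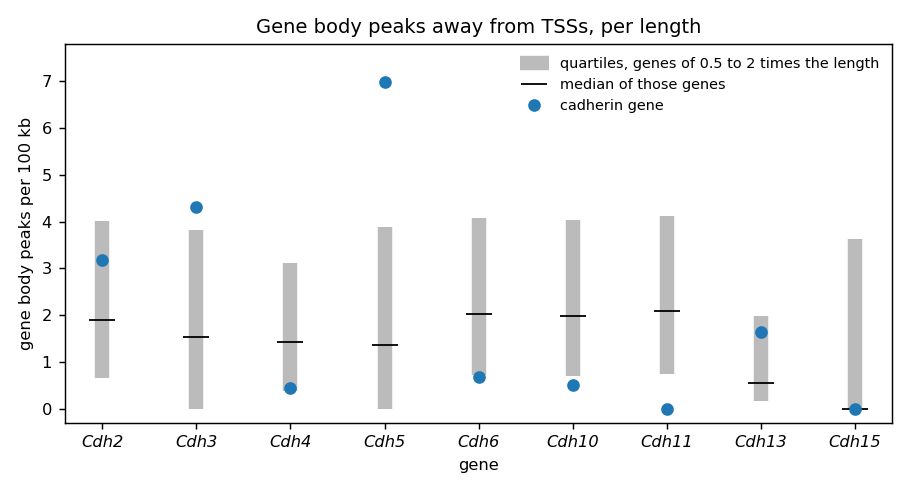
Gene body peaks per 100 kb (y axis) for each cadherin gene (points) beside protein-coding genes of 0.5 to 2 times its length (bars for the quartiles, black lines for the median). With all peaks, Cdh5 and Cdh3 lie above the upper quartile, at 6.995 and 4.31, and Cdh6, Cdh10 and Cdh11 below the lower quartile.

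The highest peak inside each gene ordered the 7 genes with body peaks as Cdh3 (15.4), Cdh5 (15.01), Cdh2 (13.9), Cdh10 (11.8), Cdh13 (11.4), Cdh4 (5.80) and Cdh6 (5.34) by fold enrichment. The fragments behind Cdh3, Cdh5 and Cdh2 were 81, 127 and 80, and only the interval of Cdh5 lay apart from that of the other two. Between Cdh4 and Cdh6, with 23 and 20 fragments, the intervals overlapped almost entirely. No gene lay between the folds of 11.4 and 5.80. Over all 33 body peaks the median fold was 5.80, and 16 exceeded the median over all peaks. The 75 of the 82 peaks that lay more than 1 kb from the TSS of any gene had a median fold of 5.68 (quartiles 4.22 and 8.77) and a median width of 270 bp. For all 47192 such peaks of the library the medians were 5.54 and 278 bp, so the sites around cadherin genes were of ordinary height and width.

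Most body peaks lay in the introns nearest to the 5′ end, with the clearest excess over intron length in Cdh13. Of the 33, 31 (93.9%) had their summit in introns 1 and 2 of the main transcript. Over all protein-coding genes with at least 3 introns the share was 45.5% of 19329 intronic peaks. Introns 1 and 2 make up 57.1% of the intron length of the 9 genes and 40.3% of that of all these genes. The largest part came from Cdh13, with 16 of 17 peaks in introns that hold 37.7% of its intron length, and from Cdh2, with 7 of 7 in 73.2%. In every gene but Cdh13, introns 1 and 2 hold most of the intron length, from 53.6% (Cdh15) to 79.4% (Cdh6). Intron 2 alone spans 335 kb in Cdh4 and 124 kb in Cdh2. Only the intron 8 peak of Cdh4 and the intron 11 peak of Cdh13 lay farther along.

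The sequence at the TSS was compared with accessibility in a 300-bp window, from 250 bp before to 50 bp after the main TSS. A window was called CpG-rich when its observed over expected CpG was at least 0.6 and its GC content at least 50%, which held for 43.9% of protein-coding genes. Of the CpG-rich promoters 80.1% had a peak within 1 kb, and of the other promoters 25.3%. Cdh2, Cdh4 and Cdh3 were CpG-rich, with ratios of 0.993, 0.888 and 0.725 and GC contents of 78.7%, 69.3% and 63.7%. Of these 3 only Cdh2, whose window holds 44 CpG dinucleotides, had a peak there. Cdh4 and Cdh3 thus belonged to the minority of CpG-rich promoters without one. The other 6 genes had ratios of 0.109 (Cdh15), 0.192 (Cdh5), 0.380 (Cdh6), 0.430 (Cdh10), 0.450 (Cdh11) and 0.574 (Cdh13), and none had a peak at the main TSS.

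**Figure D3:**
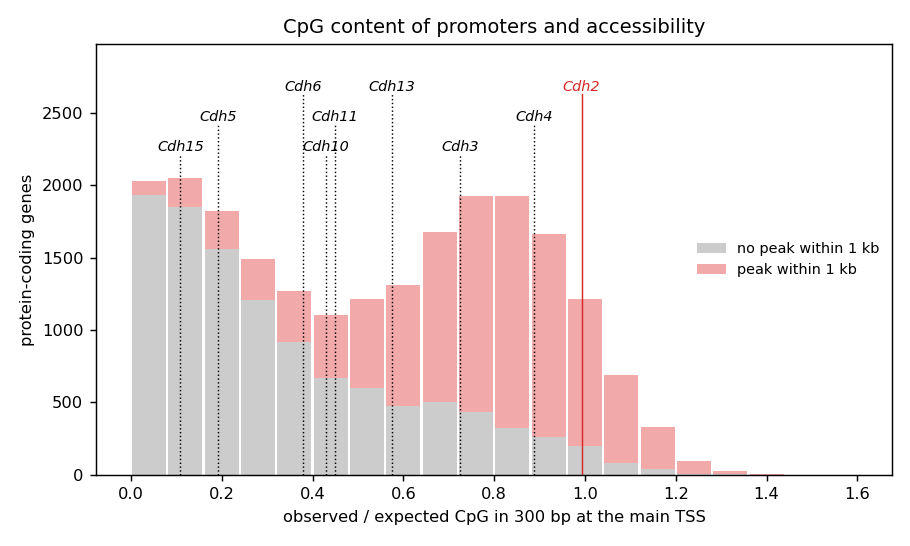
Number of protein-coding genes (y axis) by observed over expected CpG in 300 bp at the main TSS (x axis), split by whether a peak lay within 1 kb, with the 9 cadherin genes as vertical lines. Cdh2, at 0.993, is the only one of them with a peak at its main TSS, and Cdh3 and Cdh4 lie without one among genes that mostly have one.

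RefSeq promoter sequences (GRCm38.p6, the same 300 bp relative to the RefSeq start) were matched by symbol for 3 of the 9 genes, Cdh6, Cdh10 and Cdh15, and not for Cdh2, Cdh3, Cdh4, Cdh5, Cdh11 and Cdh13. Searched on both strands, the E-box CAGGTG, which the SNAIL and ZEB repressors bind, was in 0 of the 3, against 19.7% of all 20145 RefSeq promoters. TATAAA was also in 0 of the 3, against 12.2%. The GC-box GGGCGG was in Cdh6 and Cdh15, against 47.8%, and CCAAT in Cdh15 alone, against 37.8%. With 3 promoters these counts only describe the sequences.

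Letters bound by known TF families were counted in the windows of 50 bp to either side of the summit of the 75 peaks away from any TSS, on both strands and once per window, so that a window can hold several of them. TGANTCA occurred in 15 windows, or 20% (Wilson 95% interval 12.5 to 30.4), against 31.9% of all such peaks of the library. Both shares pool every middle base, so they are not shares of the AP-1 sequence alone. The Wilson intervals treat windows as independent, although many come from the same gene, so they test no difference from the library. Body peaks held 10 of the 15, in 33 windows, and peaks outside the genes 5, in 42 windows. The share below that of the library thus lay mainly in peaks outside the genes. The highest peaks of Cdh3 and Cdh5 were among them, and the TSS peak of Cdh5, which is not one of the 75, held it as well. In Cdh13, 5 of the 17 body peaks held it, and in Cdh2 2 of the 7, though none of the 3 highest. The cadherin peaks with TGANTCA had a median fold of 5.79 and those without 5.43, against 6.30 and 5.25 over the library.

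CATTCC, bound by the TEAD TFs, was in 6 of the 75 windows (8.0%), against 9.52% of all such peaks. CAGGTG was in 1 (1.33%), the intron 2 peak of Cdh6, against 3.64%. TGACGTCA, the cAMP response element, was in 0 (Wilson interval up to 4.87%), against 0.206%. The part of the CTCF core described above, chosen after the windows had been seen, was in 11 (14.7%, interval 8.39 to 24.4), against 8.25%. These 11 comprised 3 body peaks, namely the Cdh10 peak, the Cdh13 peak nearest to the TSS and the intron 8 peak of Cdh4, and 8 peaks outside the genes.

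Promoter peaks were also counted at genes that work with cadherins. Of 17 genes for catenins, nectins and other partners, 14 (82.4%) had a peak at a TSS, against 53.7% of all protein-coding genes. CpG-rich main promoters had one in 80.1%, and the CpG content of the partner genes was not compared. Among them were Ctnnb1 (beta-catenin, fold 9.06), Jup (plakoglobin, 9.52), Ctnna1 (alpha-catenin, 8.89), Ctnnd1 (p120-catenin, 18.6) and Vcl (vinculin, 12.7). The partners without one were the neural catenins Ctnna2 and Ctnnd2, and Nectin4. Cbll1, the E3 ligase Hakai that acts on E-cadherin, reached 13.1. All 7 regulators of cadherin switching had a promoter peak, with folds of 9.51 (Snai1), 11.7 (Snai2), 4.46 (Zeb1), 8.34 (Zeb2), 10.1 (Twist1), 7.32 (Tcf3) and 14.3 (Tcf4). Both lists were chosen with earlier results of these data known.

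Of 11 further type I and II cadherin genes, 1 had a promoter peak, Cdh24 (fold 9.75). Cdh7, Cdh9 and Cdh20 had no peak at a TSS, in the body or within 100 kb. Epithelial markers had a promoter peak at 3 of 10 genes (Krt8, Krt14 and Grhl2) and neural markers at 1 of 8 (Gfap). Of the 9 cadherin genes, 22.2% had a peak at any annotated TSS, against 53.7% of all genes, and with basic transcripts only Cdh2 alone had one. A peak at a promoter is not a measure of expression, and RNA was not measured in these data.

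**Figure D4:**
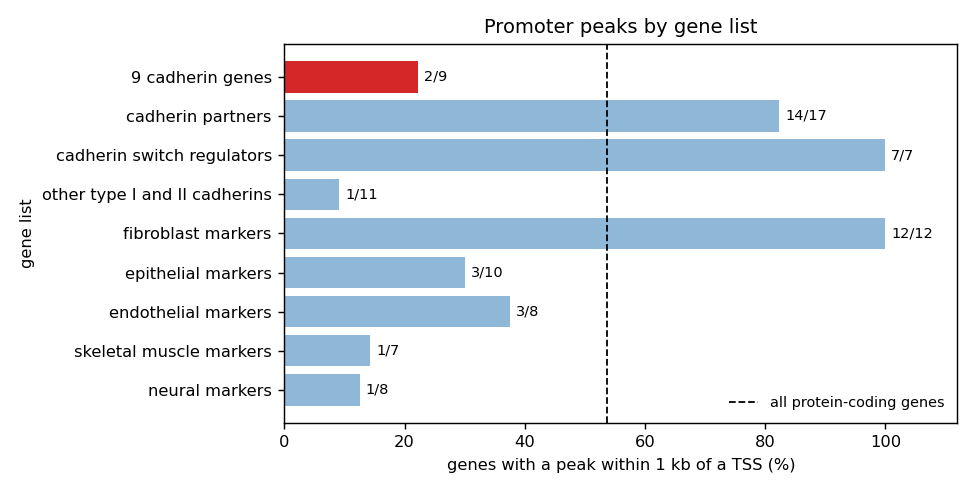
Percent of the genes of each list with a peak within 1 kb of a TSS (x axis), with the number of genes beside each bar and the share over all protein-coding genes as a dashed line at 53.7%. The cadherin genes, at 22.2%, lie below the line, and the cadherin partners (82.4%), switch regulators and fibroblast markers above it. The lists were chosen with earlier results of these data known.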

How the data were processed

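Paired-end reads of 1 ATAC-seq library were, per the study's methods, aligned to mm10, kept where uniquely mapped and freed of duplicates. The submitters' processing notes list STAR 2.5.3a, Picard and MACS2 2.1.1.20160309. The authors deposited 1 list of peaks from the single library, each described by a fold enrichment (a ratio), the −log10 of its p and q values and a score. The deposited score was not used for any value. A correction of read ends for the Tn5 cut site is not described, and the read total is not part of the list.

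Bisection on the fold enrichment and the −log10 p gave the fragments at each summit, with a whole result for 99.967% of summits and for all 82 peaks used. The method was tested on simulated data. Peaks were placed on GENCODE M21 and the GRCm38 sequence. The main TSS was the start of the longest protein-coding transcript tagged basic. Named were the 9 genes with each TSS peak and the highest body or flanking peaks, genes whose TSS lay at such a peak, and the listed partner, regulator, cadherin and marker genes. The genes and lists were chosen with earlier results of these data known. Alternatives were q of 0.01 or 1e-05, fold of at least 5, other TSS, flank and window sizes, basic transcripts, position by overlap and height by −log10 q. Tables were handled in pandas 2.3.3 and NumPy 2.4.6 under Python 3.11.15, intervals came from SciPy 1.17.1 and plots from matplotlib 3.10.9.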

Additional observations from a re-analysis of the deposited data

How the results depend on the processing

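No paired analysis was possible because the data hold a single parental library. With transcripts tagged basic only, 1 of the 9 genes, Cdh2, had a peak at a TSS, and with a distance of 2 kb 3 had one. A fold enrichment of at least 5 left 21 body peaks and 27 peaks outside the genes. Flanks of 50 kb and 200 kb held 22 and 94 peaks. TGANTCA was in 10.7% of windows of 25 bp to either side of the summit, 34.7% of those of 100 bp and 48.0% of whole peaks, where all peaks away from a TSS gave 16.5%, 44.4% and 49.2%. The part of the CTCF core in its place, added after the data were seen, gave 14.7%, a count of other letters in the same windows. Ordered by −log10 q, 3 of the 7 genes with body peaks kept their rank, and Cdh5 came first. The changes with fold, flank, window and transcript set follow from the smaller or larger sets of peaks, bases or starts counted. For that by −log10 q the cause was not tested. In all, 20 summary values, the count of other letters included, stayed within their limits and 9 moved. Per 100 kb, 31 values of single genes stayed and 5 moved, among them Cdh3 to 2.15, Cdh4 to 0.219 and Cdh13 to 0.864 at a fold of at least 5. Those that stayed include Cdh11 and Cdh15, which stood at 0 and could not fall under a stricter cut-off. The limits are a factor of 1.5 for counts and the 95% interval for shares. Sites under fewer than 10 fragments cannot appear in the list.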
